A study of Mus musculus with 4 samples.

Results

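Histones are the proteins that package DNA, and their genes and variants were described here in adult mouse testis. Members were chosen by gene symbol: the clustered histone genes named Hist1h to Hist4h, the H2A variants named H2af, the H3.3 genes named H3f3, and the linker histones H1f0, H1fx, H1fnt and Hils1, without symbols ending in -ps. This gave 49 of the 25265 genes of the deposited table, and 39 of the 49 passed the filter on low counts that left 21132 genes for testing. The libraries were made from ribosomal RNA-depleted total RNA of testes of C57BL/6 mice at postnatal day 56, and 2 carry the label control and 2 the label Ythdf2-vKO. The series title calls the mutants germ cell-specific for Ythdf2, a cytoplasmic reader of N6-methyladenosine in RNA, and the labels give neither the driver of the deletion nor the deleted segment. Nothing in the labels says that the libraries came from separate animals, so p-values measure the spread between these libraries.

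Nucleosomes are built from the core histones H2A, H2B, H3 and H4, and linker H1 histones bind the DNA between them. Most core histones come from clustered genes that are read during DNA replication, and their mRNAs end in a conserved stem-loop bound by SLBP in place of a poly(A) tail. Replacement variants such as H2A.Z and H3.3 come from genes of their own with polyadenylated mRNAs and are also made outside S phase. Male germ cells add variants of their own, and spermatids then remove most histones in favour of transition proteins and protamines.

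The stem-loop is shown because it is the sequence that marks replication-dependent histone mRNAs. The motif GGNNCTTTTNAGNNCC was searched on the sense strand of all GENCODE M21 transcripts (mouse build GRCm38). It was found in 23 of the 49 members and in 0.161% of all 55450 annotated genes. These are the 6 sequences it took, each given 5′ to 3′ with the loop in capitals.
Hist1h1c and the other 14 members with this form: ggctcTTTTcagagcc
Hist1h1t, Hist1h2bb and Hist1h3f: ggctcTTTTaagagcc
Hist1h4c and Hist1h4h: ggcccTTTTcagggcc
H2afx: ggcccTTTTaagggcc
Hist1h4i: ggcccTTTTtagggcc
Hist2h2ac: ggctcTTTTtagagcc
The stem-loop lay within 60 nt of the annotated transcript end in 10 of the 23 and farther from it, by up to 2010 nt, in 13, so its presence does not say where a transcript ends. In 9 of the 23, the longest annotated transcript carries a poly(A) signal, AATAAA or ATTAAA, in its last 50 nt, as do 38.3% of all annotated genes. For 3 of these 9 that are described below, the stretch around the signal is given, with the signal in capitals. It need not reach the transcript end.
H2afx: tgggctaattttATTAAAggatcgtttggt
Hist1h1c: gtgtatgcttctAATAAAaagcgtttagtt
Hist1h4h: ccacattttcttATTAAAagagcgaacatg

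The libraries held 24862518 to 29561182 gene counts. The targeted gene Ythdf2 went against its label, with 51.0 and 53.5 CPM (the depth-scaled count, with TMM scaling factors) in the control libraries and 66.3 and 67.0 CPM in vKO-labelled libraries. Every direction below therefore follows the labels alone, vKO-labelled over control. Germ cell and somatic markers of testis were present. The 12 elongating spermatid genes summed to between 10280 and 13224 CPM per library, and the 12 Sertoli cell genes to between 1335 and 1970 CPM. Within the control group, the deviation of control library 2 from the mean of the 4 libraries followed transcript GC content (Spearman's rho -0.401 across 17817 genes, a description, since genes are not independent), against 0.0240 in control library 1 and 0.254 and 0.190 in those labelled vKO. The tested members had a median GC content of 54.9%, against 48.9% over all genes tested. Between GC content and log2 fold change, Spearman's rho was 0.293 across the 17817 genes and -0.131 across the 39 tested members, again a description.

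No histone gene passed the threshold. By edgeR's quasi-likelihood test, 0 of the 39 tested members had a Benjamini-Hochberg adjusted p under 0.05, where 0.393% of all genes tested did (0.279% higher and 0.114% lower). A DESeq2 Wald test, which gave an adjusted p to 27 members, also called 0, where it called 1.32% of all genes with such a value. At an unadjusted p under 0.05 there were 6 members higher and 3 lower in vKO-labelled libraries, in all 9 of 39, beside 14.1% of all genes tested. The groups did not overlap in 15 members that lay higher and 11 that lay lower, beside 45.3% of all genes tested (22.7% higher, 22.6% lower). The median log2 fold change was 0.08 over the members and 0.00 over all genes tested. With a gene-wise offset for GC content that median was -0.028, and without control library 1 it was -0.010.

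**Figure D1:**
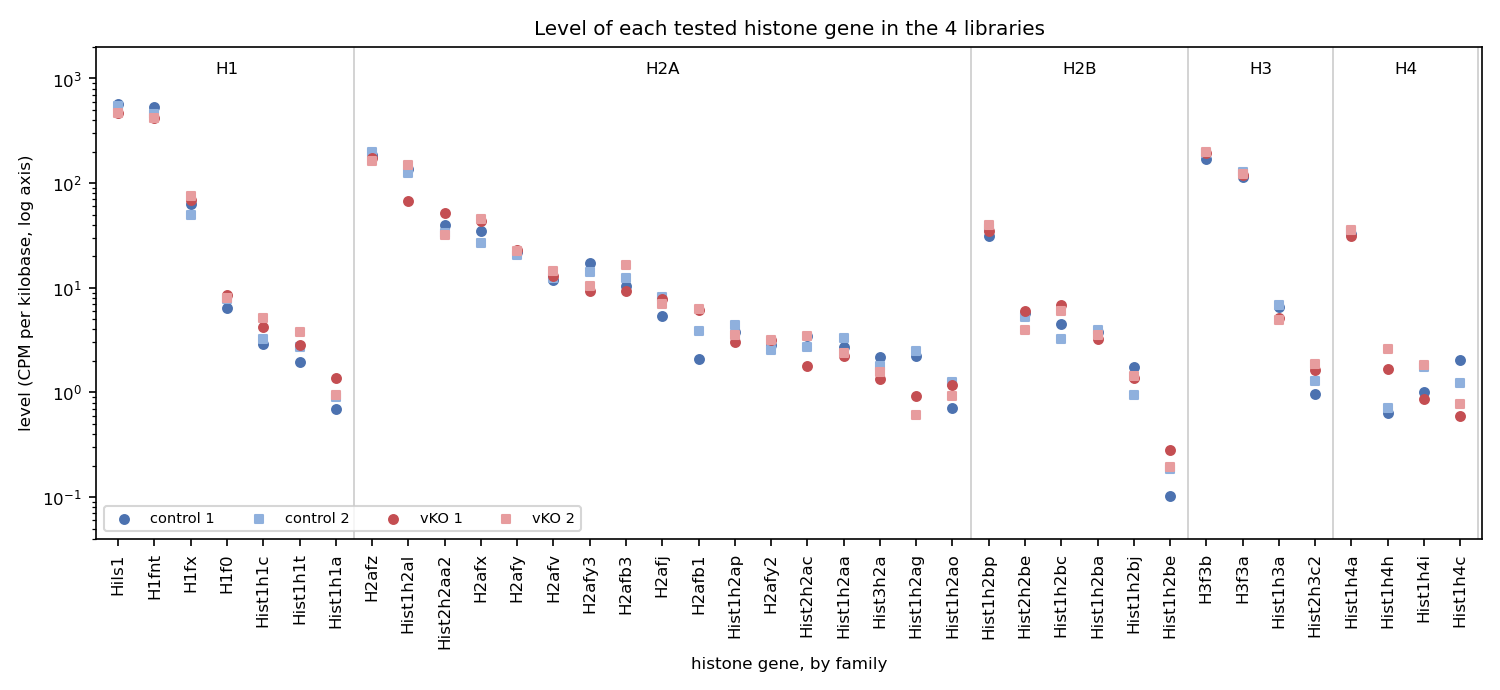
Level of the 38 tested members other than the antisense RNA (horizontal axis, by family) in CPM per kilobase of its longest annotated transcript (vertical log axis), with circles and squares for replicates 1 and 2 of the control (blue) and vKO-labelled (red) libraries. The spermatid linker histones Hils1 and H1fnt were the highest, at means of 512 and 456 CPM per kilobase, and most clustered genes lay under 10.

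By level, 5 variants held most of the members' reads. The genes H1fnt, H3f3b, Hils1, H3f3a and H2afz made up between 80.0% and 83.7% of the summed CPM of the 49 members in each library. The 28 clustered genes together made up between 3.98% and 4.62%, at 103 and 102 CPM in the control libraries and 112 and 104 CPM in those labelled vKO. Of these 28 genes, 17 had a mean under 1 CPM. Per kilobase, the median level was 29.8 CPM for the 10 replacement variants, 4.58 for the 7 germ cell variants and 1.37 for the 28 clustered genes. Another 38 annotated genes match the same symbol rule and are not analysed here.

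**Figure D2:**
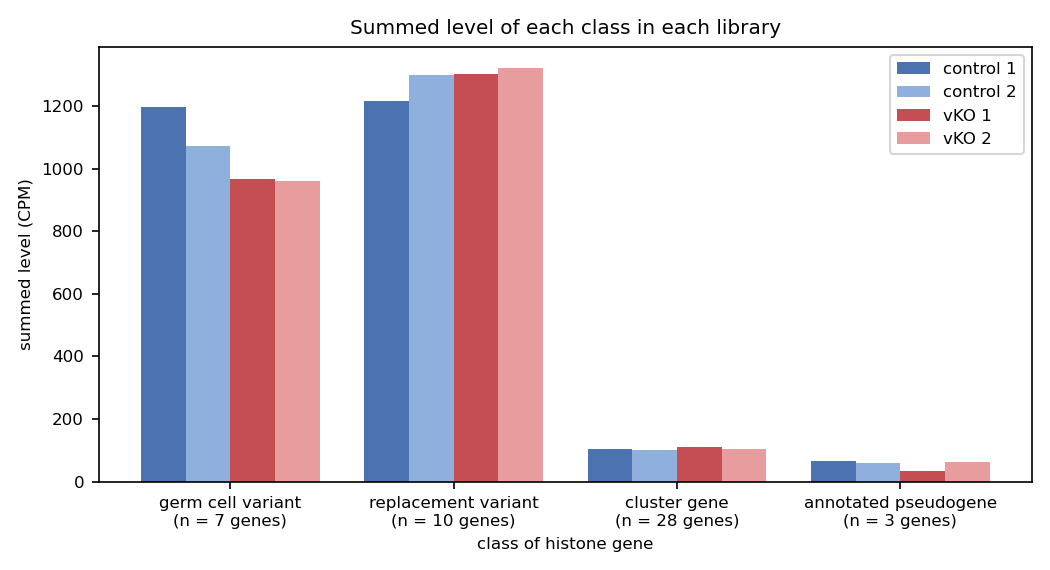
Summed level in CPM (vertical axis, starting at 0) of the members of each class (horizontal axis) in each of the 4 libraries (bars). Germ cell variants summed to 1198 and 1073 CPM in control, against 966 and 962 CPM in vKO-labelled libraries. H1fnt and Hils1 held most of that sum, and 3 of the 7 variants had a log2 fold change above 0. Replacement variants summed to 1217 and 1298 CPM against 1304 and 1323 CPM.

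The 2 linker histones of spermatids were the most abundant members per kilobase and lay lower in the vKO-labelled libraries. H1fnt, also called H1T2, a linker histone of the spermatid nucleus (chromosome 15, 98255986 to 98257293, minus strand), had 701 and 592 CPM in the control libraries and 548 and 545 CPM in those labelled vKO. Both vKO-labelled libraries lay below both controls, and the controls differed from each other by more than the distance from control library 2 to either. The groups differed by -0.24 in log2 (SE 0.12), at an adjusted p of 0.408 by edgeR's quasi-likelihood test. The GC offset gave -0.43, and leaving out control library 1 gave -0.12. Without control library 2, which leaves a single control library, it was -0.36. Hils1, a linker histone of elongating spermatids encoded on chromosome 11 (94967593 to 94968456), had 488 and 469.7 CPM in control, against 407 and 403 CPM in vKO-labelled libraries. Its groups were also apart, and its controls lay close together, and it differed by -0.24 in log2 (SE 0.11, adjusted p 0.368).

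The other 5 tested linker genes all lay higher in both libraries labelled vKO than in both controls, as did 22.7% of all genes tested, and none passed. H1fx, the replication-independent H1.10, had 77.3 and 60.9 CPM in control, against 84.2 and 92.1 CPM in vKO-labelled libraries, or a log2 difference of 0.35 (SE 0.14, unadjusted p 0.0276, adjusted p 0.286). The GC offset gave 0.12, leaving out control library 2 gave 0.19 and leaving out control library 1 gave 0.53. H1fx had the highest GC content of the members, at 71.3%. Hist1h1c, which encodes the somatic linker H1.2, had 106 and 150 counts in control, against 177 and 214 in vKO-labelled libraries, or a log2 difference of 0.61 (SE 0.22, unadjusted p 0.0152, adjusted p 0.234). H1f0, the linker of non-dividing cells, had 13.1 and 15.9 CPM against 17.4 and 16.2 CPM, which left the groups apart by less than the gap between the controls. Hist1h1t, the testis H1 of pachytene spermatocytes, was low in all 4 libraries, with 42 and 75 counts in control, against 70 and 93 in vKO-labelled libraries. Hist1h1a had 12 to 27 counts per library.

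Because both abundant spermatid linkers were lower and the 5 scarcer genes higher, the H1 family gave opposite signs by gene and by sum. The median log2 fold change of the 7 tested genes was 0.35, whereas the log2 ratio of the summed CPM was -0.19, from 1287 and 1147 CPM in control to 1068 and 1069 CPM in vKO-labelled libraries.

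**Figure D3:**
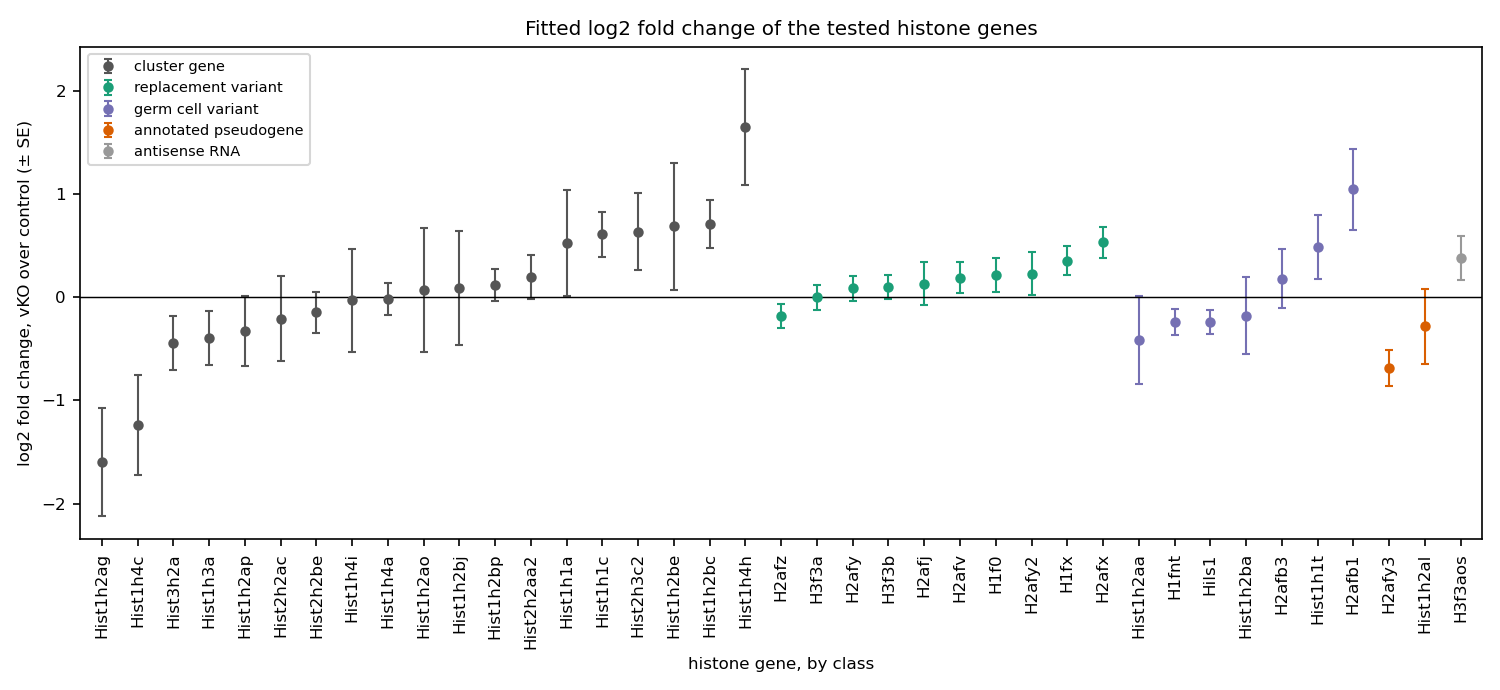
Fitted log2 fold change of the libraries labelled vKO over control (vertical axis) with its standard error, for each of the 39 tested members (horizontal axis), coloured by class. Replacement variants lay between -0.19 and 0.53 with small errors, while clustered genes with few reads spread from -1.60 to 1.65 with wide ones.

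Among the H2A genes, H2afx and H2afy3 had the smallest p-values of all members. H2afx encodes H2A.X, the histone whose phosphorylated form marks DNA breaks and the silenced sex chromosomes of spermatocytes. The gene lies on chromosome 9 (44334694 to 44336077, plus strand) and its 1384 nt transcript carries both the stem-loop and the poly(A) signal shown above. It had 48.4 and 36.8 CPM in control, against 60.4 and 62.3 CPM in vKO-labelled libraries. Both vKO-labelled libraries lay above both controls and close to each other. The groups differed by 0.53 in log2 (SE 0.15), at an unadjusted p of 0.00367 and an adjusted p of 0.151 by edgeR's quasi-likelihood test. Without control library 1, the higher of the controls, it was 0.73, and without control library 2 it was 0.34. A fit without 1 of the controls keeps a single control library, so only its effect size is given. With the GC offset the log2 fold change was 0.30 and did not pass in that fit. The GC content of the transcript was 62.3%.

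H2afy3 carries a macroH2A symbol, but M21 annotates it as a processed pseudogene on chromosome 15 (62218221 to 62219332, minus strand). Of its 50-base words, 86.6% occur in no other annotated gene, and the word sharing was mostly with H2afy2. It had 19.4 and 15.9 CPM in control, against 10.4 and 11.5 CPM in vKO-labelled libraries, so that both of the latter lay below both controls. The log2 fold change was -0.69 (SE 0.17, unadjusted p 0.00162, adjusted p 0.115). With the GC offset it was -0.81 and passed at an adjusted p of 0.0358, where 0.667% of all genes were called. Without control library 2 it was -0.82. Its exon lies opposite an exon of Pvt1. The library kit marks strand, per the labels, but whether reads were counted by strand is not given in the sources used here.

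**Figure D4:**
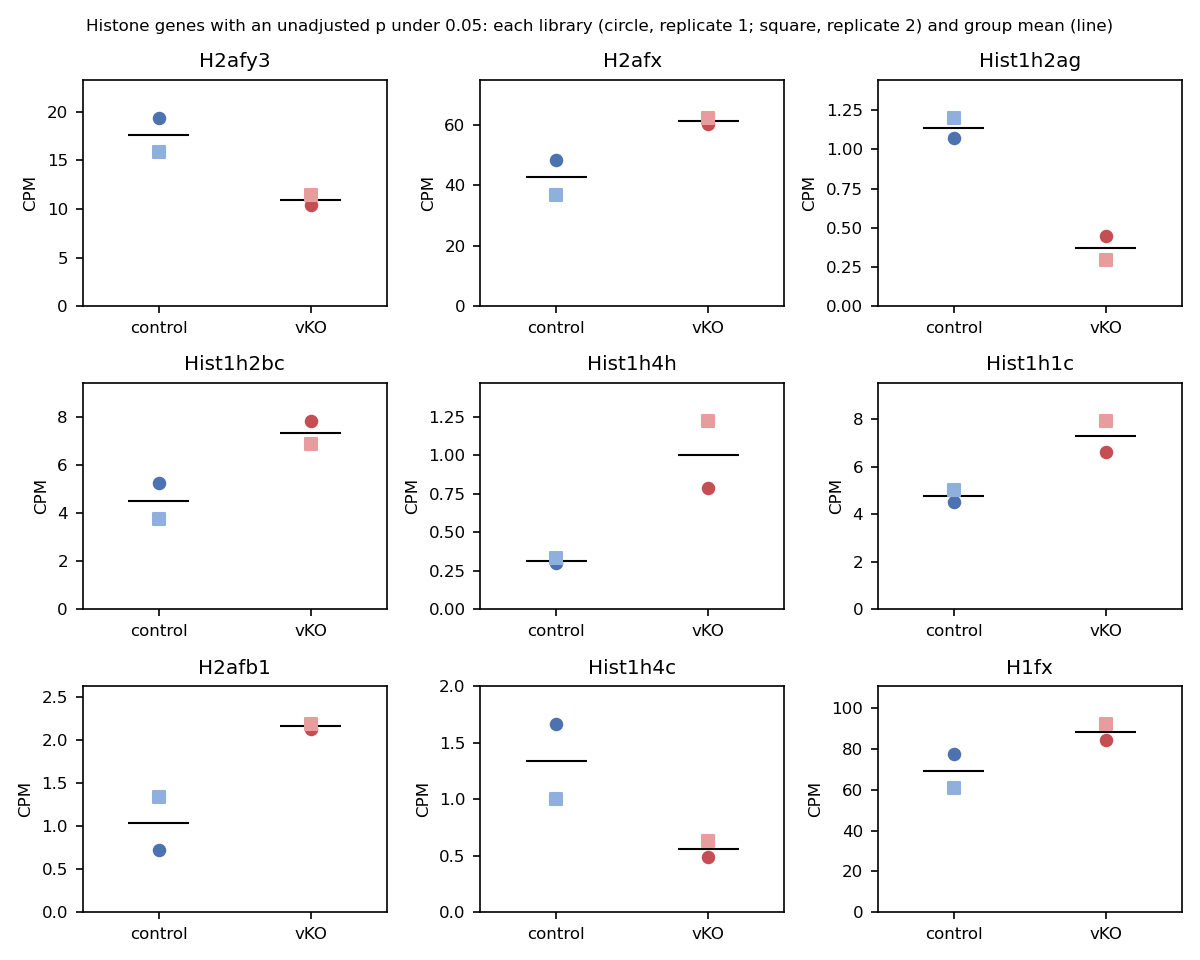
CPM (vertical axes, starting at 0) of the 9 members with an unadjusted p under 0.05, in control and vKO-labelled libraries, with circles for replicate 1, squares for replicate 2 and lines for group means. The groups did not overlap in any panel, as in 45.3% of all genes tested. These genes were picked by p from the same values, so the separation is no added result. None of the 9 passed after adjustment.

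The intact macroH2A genes did not share the direction of H2afy3. H2afy, which encodes macroH2A1, had 88.9 and 83.1 CPM in control, against 92.8 and 89.4 CPM in vKO-labelled libraries (log2 fold change 0.08, SE 0.12), and H2afy2, for macroH2A2, had 6.20 and 5.57 against 6.95 and 6.82 CPM (0.23, SE 0.21). H2afz, one of the genes for H2A.Z, was the most abundant H2A gene, with 199 and 212 CPM in control, against 185 and 176 CPM in vKO-labelled libraries. Its groups did not overlap, and they differed by -0.19 in log2 (SE 0.12, adjusted p 0.526). H2afv, the second H2A.Z gene, had 451 and 601 counts in control against 560 and 643, in the opposite direction (0.19, SE 0.15). H2afj, which encodes H2A.J, ran from 9.75 to 14.9 CPM with overlapping groups.

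The short testis variants H2A.B, encoded on the X chromosome, were scarce. H2afb1 had 17 and 40 counts in control, against 57 and 59 in vKO-labelled libraries, or 0.727 and 1.33 against 2.13 and 2.19 CPM. The groups were apart, with a log2 fold change of 1.04 (SE 0.39, unadjusted p 0.0192, adjusted p 0.251), and 0.68 and 1.56 without control library 1 and 2 in turn. H2afb3 shares 50-base words mostly with H2afb1 and has 53.2% of its own, so their counts are uncertain. It had 85 and 128 counts in control, against 87 and 154 in vKO-labelled libraries. Hist1h2aa, the testis H2A that pairs with testis H2B, had 23 to 39 counts per library.

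Several H2A genes with a Hist symbol share most of their sequence with other copies. Hist1h2al, annotated as a processed pseudogene on chromosome 13 (51202727 to 51203065), had 1085 and 1275 counts in control, against 615 and 1349 in vKO-labelled libraries, so a single library, replicate 1 of those labelled vKO, stood apart. Its log2 fold change was -0.28 (SE 0.36), 0.17 without that library and -0.95 without the other library labelled vKO. In the last of these fits it passed at an adjusted p of 0.0287, where 0.446% of all genes were called. Only 32.4% of its 50-base words occur in no other gene, and the sharing was mostly with Hist2h2aa2. Hist2h2aa2, with 21.1, 17.5, 27.2 and 17.0 CPM in the same order of libraries, has no word of its own and shares most with Hist2h2aa1. That same vKO-labelled library gave the lowest value of Hist1h2al and the highest of Hist2h2aa2. Hist1h2ag had 25 and 36 counts in control, against 12 and 8 in vKO-labelled libraries (log2 fold change -1.60, SE 0.52, unadjusted p 0.00937, adjusted p 0.200), and 21.1% of its words are its own.

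Of the H2B genes, Hist1h2bp was the most abundant per kilobase, at a mean of 35.9 CPM, with 19.4 and 23.2 CPM in control, against 21.7 and 24.7 CPM in vKO-labelled libraries. Hist1h2bc had 5.26 and 3.77 CPM in control, against 7.84 and 6.86 CPM in vKO-labelled libraries. Its groups were apart, with a log2 fold change of 0.71 (SE 0.23, unadjusted p 0.00948, adjusted p 0.202). It was 0.48 without control library 2 and 0.96 without control library 1. Hist2h2be ran from 10.5 to 15.7 CPM, with both extremes among the libraries labelled vKO. Hist1h2ba, the testis H2B of spermatocytes and spermatids, had 34 and 45 counts in control, against 33 and 37 in vKO-labelled libraries, or a log2 difference of -0.18 (SE 0.37).

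H3.3, the replacement H3 that differs from the replication H3 by a few residues, is encoded by H3f3a and H3f3b. H3f3b had 431 and 485 CPM in control, against 485 and 494 CPM in vKO-labelled libraries (log2 fold change 0.10, SE 0.12), and H3f3a had 324 and 364 against 337 and 349 CPM (-0.00, SE 0.12). The groups of each overlapped. The clustered Hist1h3a had 81 and 109 counts in control, against 74 and 71 in vKO-labelled libraries (-0.40, SE 0.27). Hist2h3c2 had 23 and 39 counts against 45 and 51 (0.63, SE 0.38). H3f3c, a processed pseudogene in M21 with 26.2% of its words its own, held 4 to 11 counts and was not tested. The antisense RNA H3f3aos, which the symbol rule takes in and which is no histone gene, had 6.59 and 5.04 CPM in control, against 7.62 and 7.45 CPM in vKO-labelled libraries (0.38, SE 0.21). Its exon overlaps H3f3a on the other strand.

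H4 is made from many genes that encode the same protein, and 1 gene held most of its reads here. Hist1h4a had 17.6 and 18.9 CPM in control, against 16.9 and 19.1 CPM in vKO-labelled libraries, with a log2 fold change of -0.02 (SE 0.16). Its annotated transcript has a poly(A) signal and no stem-loop by this motif. Hist1h4h had 7 and 10 counts in control, against 21 and 33 in vKO-labelled libraries (1.65, SE 0.56, unadjusted p 0.0115, adjusted p 0.217). Hist1h4c went the other way, with 39 and 30 counts in control, against 13 and 17 in vKO-labelled libraries (-1.24, SE 0.49, unadjusted p 0.0247, adjusted p 0.275). Hist1h4i had 17 and 38 counts against 17 and 36. Summed over the family, H4 had 20.3 and 21.5 CPM in control, against 18.8 and 22.3 CPM in vKO-labelled libraries, which overlapped.

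The members were also grouped by whether any annotated transcript holds the stem-loop and whether the longest one holds the poly(A) signal. In genes with several transcripts, these need not lie in the same one. This grouping was chosen after the values were seen and is a description with no test. Among the 8 tested genes with both a stem-loop and a poly(A) signal, the log2 fold change was above 0 in 6, with a median of 0.51. Among the 9 with a stem-loop and no signal it was above 0 in 4, with a median of -0.21. At an unadjusted p under 0.05, the first group held 3 higher genes (H2afx, Hist1h1c and Hist1h4h) and 0 lower ones, and the second held 0 higher and 2 lower genes (Hist1h2ag and Hist1h4c). The second group mixes transcripts that end near the stem-loop with longer ones: it lies 23 nt from the end in Hist1h2ag, 454 nt in Hist1h4c and 377 nt in Hist2h3c2. In the first group, that distance is 38 nt in Hist1h2bp, 46 nt in Hist1h4h and 185 nt in Hist1h1t. It is 330 nt in Hist1h4i, 822 nt in H2afx, 840 nt in Hist1h1c, 1643 nt in Hist3h2a and 1861 nt in Hist1h2be. Over all genes tested, 7.65% were higher and 6.47% lower at that p. All 15 alternative fits reuse the same libraries and genes and so do not test the grouping. Over them, the median stayed between 0.30 and 0.57 in the first group and between -0.48 and -0.14 in the second. In the 10 genes with a signal alone it was 0.06, and in the 12 with neither it was 0.09. The members with a stem-loop and no signal together held 34.0 and 30.1 CPM in control, against 36.5 and 27.7 CPM in vKO-labelled libraries, so that their summed level overlapped between the groups.

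**Figure D5:**
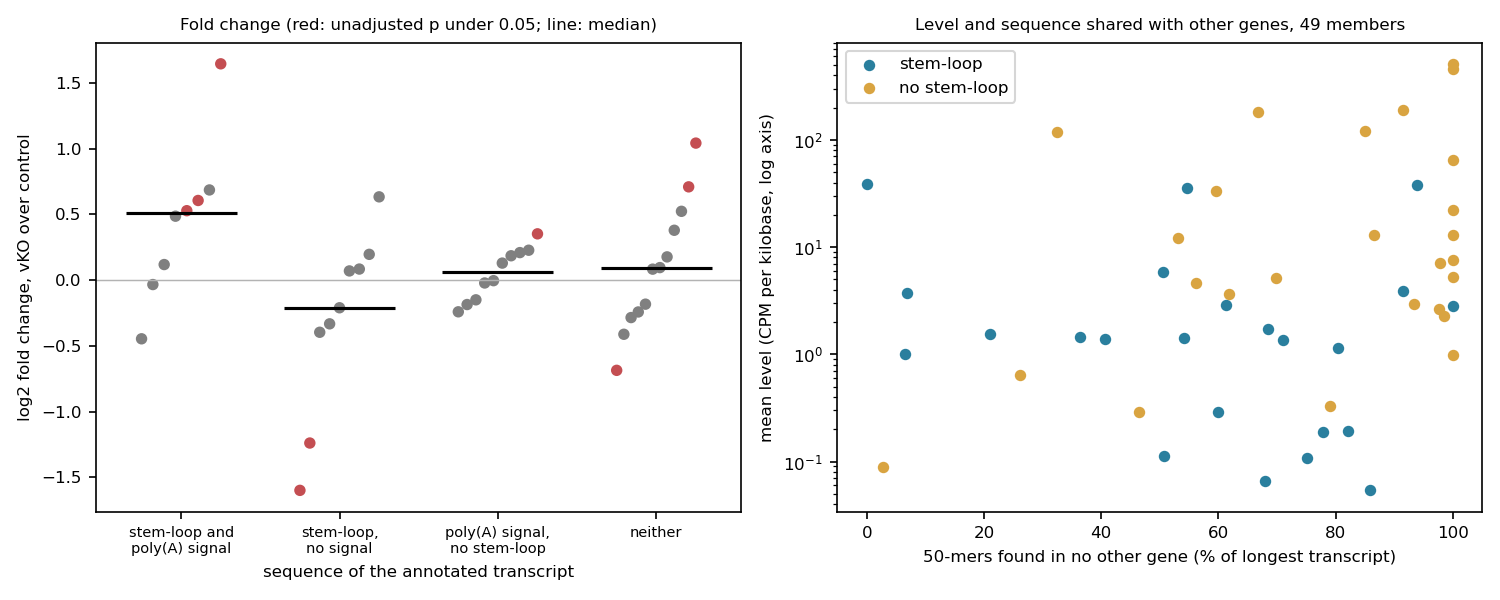
Left, log2 fold change (vertical axis) of the 39 tested members by stem-loop in any annotated transcript and poly(A) signal in the longest (horizontal axis). Lines are group medians of 0.51, -0.21, 0.06 and 0.09, and genes with an unadjusted p under 0.05 are in red. Right, mean level in CPM per kilobase (vertical log axis) of all 49 members against the percentage of 50-base words found in no other gene (horizontal axis), with stem-loop members in blue.

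The clustered copies share much of their sequence, which bears on what their counts mean. The median share of 50-base words found in no other annotated gene was 61.6% over the 32 genes with a Hist symbol in the table and 32.9% over the 37 others not analysed here. Of the 49 members, 10 had less than 50% of such words and 9 had 100%. How the counting treated reads with several matches is not given in the sources used here, so single clustered genes with a low share are uncertain. Among the 9 with 100%, mean levels ran from 0.976 (Hist1h1a) and 2.84 (Hist1h1t) to 512 CPM per kilobase (Hils1). Whether shared sequence lowered the counts of other members was not tested. The 10 untested members held 0 to 11 counts per library, too few for a fold.

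Genes that make, load and remove histones were read from the same fit, and none of the listed genes passed by edgeR's quasi-likelihood test or the DESeq2 Wald test. Of 20 tested genes for histone mRNA synthesis and 3′ end processing, 2 were higher and 1 lower at an unadjusted p under 0.05, where 7.65% of all genes were higher and 6.47% lower, and the list's median log2 fold change was -0.04. Lsm10 and Lsm11, subunits of the U7 snRNP that cuts histone pre-mRNA, were these 2 genes, with 16.3 and 18.7 against 22.0 and 24.4 CPM (0.41, SE 0.15, adjusted p 0.257) and 3.51 and 4.87 against 6.09 and 6.56 CPM (0.59, SE 0.24, adjusted p 0.288). Slbp, the stem-loop binding protein, had 115 and 109.5 CPM in control, against 96.9 and 97.2 CPM in vKO-labelled libraries (-0.21, SE 0.12, adjusted p 0.472). Npat and Casp8ap2, which act at the histone locus body, differed by -0.02 (SE 0.14) and -0.07 (SE 0.16), each with overlapping groups. Ncbp1, a subunit of the cap-binding complex, was lower at -0.31 (SE 0.12, adjusted p 0.255), and was -0.34 without control library 1.

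Of 29 tested histone chaperones and their partners, 3 were higher and 2 lower at an unadjusted p under 0.05 (7.65% and 6.47% of all genes), and the median was 0.04. Nasp, the chaperone of H1 and of H3 and H4, had 1437 and 1408 CPM in control, against 1142 and 1237 CPM in vKO-labelled libraries (-0.26, SE 0.11, adjusted p 0.331). Cabin1, a subunit of the HIRA complex that deposits H3.3, had the smallest p of the list, with 47.4 and 37.7 CPM in control, against 53.2 and 58.9 CPM in vKO-labelled libraries (0.40, SE 0.15, adjusted p 0.245). Hira itself differed by 0.26 (SE 0.26), the CAF-1 genes Chaf1a and Chaf1b by 0.16 (SE 0.15) and -0.14 (SE 0.16), and Asf1a and Asf1b by 0.22 (SE 0.14) and 0.09 (SE 0.14). Without control library 1, Chaf1a was 0.43 and Cabin1 0.57. Of 25 DNA replication genes, 1 was higher and 3 were lower at that p (7.65% and 6.47% of all genes), with a median of -0.07. Pcna and Mki67 differed by -0.01 (SE 0.14) and -0.12 (SE 0.13). Top2a, the gene with the smallest p in the list, differed by -0.39 (SE 0.12, adjusted p 0.178), and by -0.45 without control library 1.

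Of 25 tested genes of the exchange of histones for protamines, which include 5 germ cell histones described above, 18 had a log2 fold change below 0, as had 10500 of the 21132 genes tested. At an unadjusted p under 0.05, 5 were lower and 0 higher (6.47% and 7.65% of all genes). The median was -0.17. Prm3, Tnp1, Prm1 and Prm2 had values of -0.43, -0.39, -0.31 and -0.29, each with an SE from 0.12 to 0.13 and an adjusted p from 0.175 to 0.318. Prm3 passed with the GC offset, at -0.63 and an adjusted p of 0.0358. Psme4, the proteasome activator that acts on acetylated histones in spermatids, had 767 and 686 CPM in control, against 564 and 580.1 CPM in vKO-labelled libraries (-0.34, SE 0.12, adjusted p 0.220). Without control library 2, which leaves a single control library, Prm1, Prm2 and Prm3 had values of -0.42, -0.41 and -0.51. Tnp1, Tnp2 and Psme4 had values of -0.54, -0.40 and -0.42 in that fit. Brdt, Chd5 and Rnf8, which act in histone removal, had overlapping groups and values of -0.02, 0.14 and -0.08. Chd5 was 0.57 without control library 1. Tnp2 stood at -0.25 (SE 0.13, adjusted p 0.407).

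Of 14 tested histone variants outside the symbol rule, 10 had a log2 fold change below 0, and 2 were higher and 1 lower at an unadjusted p under 0.05 (7.65% and 6.47% of all genes). H2al2a, the spermatid H2A.L.2, had 135 and 135 CPM in control, against 107 and 115 CPM in vKO-labelled libraries (-0.28, SE 0.12, adjusted p 0.314). Cenpa, the centromeric H3, had 2.95 and 4.14 against 5.49 and 4.93 CPM (0.55, SE 0.25, adjusted p 0.352). H2al1o had 8 and 4 counts in control, against 21 and 17 in vKO-labelled libraries (1.60, SE 0.66, adjusted p 0.300), and it belongs to a family of near-identical copies.

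Cell type marker lists were read in the same fit, where 7.65% of all genes were higher and 6.47% lower at an unadjusted p under 0.05. Of their genes, only Wt1 passed after adjustment by edgeR's quasi-likelihood test. The DESeq2 Wald test, which called 1.32% of all genes with an adjusted p, called Wt1 and others at adjusted p-values up to 0.0404. These were the Sertoli cell genes Amhr2, Ctsl and Cldn11 and the Leydig cell gene Nr5a1 as higher, and the spermatocyte gene Adam3 as lower. The 12 elongating spermatid genes, which include the protamine and transition protein genes above, had a log2 fold change below 0 in 11, 6 of them at that p, and their summed level was 13224 and 10964 CPM in control, against 10280 and 10624 CPM in vKO-labelled libraries. H1fnt and Hils1 were highest in control library 1, as this marker sum was, while the other 5 germ cell histone variants were lower in that library than in control library 2. All 12 Sertoli cell genes had a log2 fold change above 0, 8 of them at an unadjusted p under 0.05, with sums of 1335 and 1429 against 1970 and 1745 CPM. Wt1, a Sertoli cell transcription factor, had 31.3 and 32.8 CPM in control, against 54.2 and 50.7 CPM in vKO-labelled libraries (log2 fold change 0.71, SE 0.13, adjusted p 0.0418). All 13 spermatogonial genes had a log2 fold change above 0, 5 of them at that p, with sums of 167 and 164 against 208 and 186 CPM. Sums of the 12 round spermatid genes, at 2375 and 2202 against 2151 and 2283 CPM, overlapped, and those of the 14 spermatocyte genes, at 4895 and 4558 against 4441 and 4281 CPM, did not. Of the other lists, the median log2 fold change was 0.76 over 4 erythrocyte genes (3 higher at that p), 0.38 over 8 Leydig cell genes (4 higher) and 0.37 over 7 endothelial genes (1 higher). It was 0.07 over 8 macrophage genes (1 higher) and -0.05 over 7 peritubular myoid genes (1 higher). Of 8 genes listed for epididymis only 2, Cst8 and Spink2, were tested, with a median of -0.25 (1 lower). This pair does not stand for the list. In whole testis, fewer cells of a type and less RNA per cell cannot be told apart, and the part of cell composition in the histone values was not tested.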

How the data were processed

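Testis RNA-seq of 4 libraries was analysed from 1 table. The deposited raw counts per gene and library were used as given. HISAT2 2.1.0 and HTSeq 0.6.1p1 are named, per the submitters' processing notes, without settings. Strand use and genome build are not given in the sources used here. Per the file headers, the table also holds the authors' mean normalized count (a signal over the 4 libraries), log2 fold change with its standard error, test score, p-value and adjusted p-value. These deposited columns were used as a check and in the closing section.

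Counts were tested with edgeR 4.0.16 (limma 3.58.1, R 4.3.3): TMM scaling, the filterByExpr filter, and a quasi-likelihood fit with robust estimation and genotype as its single term (prior count 0.125), two-sided, adjusted by Benjamini-Hochberg over 21132 genes. The standard error is the absolute log2 fold change divided by the square root of F. The common biological coefficient of variation was 13.5%. On data simulated for this comparison over 21132 genes, 86 of 100 changes of 1 and 100 of 100 of 2 (log2) were recovered. Of 20600 unchanged genes, 11 were called. The changed genes were drawn from genes above a minimum mean count, and all genes shared a common dispersion. The recovery therefore does not describe members with few reads. Replicates of a group differed beyond sampling noise (chi-square per degree of freedom 21.2 in control, 8.41 in vKO). The correlation between deviations of libraries with the same number was 0.0888 (2 pairs), and the number was not treated as a pairing. With 2 libraries per group, standard errors are imprecise.

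Lengths, GC content, 50-base words and poly(A) signals are those of the longest GENCODE M21 transcript, matched by identifier for 25241 genes. The stem-loop and its distance from the end were taken from the first listed transcript that holds the motif. All genes of the table had at least 10 counts in total, and counts carry no molecular identifiers. Members named in the text were those with an unadjusted p under 0.05, the 3 most abundant per kilobase and the extremes of each family, and a list of variants. Of the gene lists, the called genes, the smallest p of each pathway list and its core genes were named. Members and lists were chosen with earlier results of these data known. Alternatives were other scalings (DESeq2 1.42.0 size factors, library totals), filters, no robust estimation, a DESeq2 Wald test, offsets for GC content or length, the replicate block and leaving out each library.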

Additional observations from a re-analysis of the deposited data

How the results depend on the processing

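Over 15 alternatives (14 for Hist1h2ag and Hist1h4h, which the filter of 10 counts in every library removes), 22 of the 31 named tested members never changed sign and 25 never passed. The counts of all genes called, 59 higher and 24 lower, became 181 and 37 with library totals alone, 137 and 80 by the DESeq2 Wald test, 76 and 65 with the GC offset, and 8 and 2 at an adjusted p under 0.01. Without robust estimation 15 were lower. Leaving out a library gave 30 to 1048 higher and 5 to 523 lower, in fits where the single library left in a group is assumed to vary like the others. With the replicate block they were 627 and 390, with the GC offset and replicate block 243 and 284, and with the length offset and replicate block 83 and 61. The numbers are not known to pair the libraries. Members called, 0 in each direction, became 1 higher and 1 lower with the replicate block (H2afx, adjusted p 0.00869, and H2afy3, 0.0142), 1 lower with the GC offset, alone or with the block, and 0 to 3 higher and 0 to 2 lower when a library was left out. Pathway genes called, also 0 and counted without the histone members, became 2 lower with the block, 1 lower with the GC offset, alone or with the block, and 0 to 10 higher and 0 to 6 lower without a library. The members' median of 0.08 was 0.16 with library totals, -0.028 with the GC offset, -0.060 with the GC offset and block, 0.13 with the length offset and block, and -0.010 to 0.15 without a library. Taken as sums, H1 went from 0.35 to -0.19 and H2A from 0.07 to -0.028. With the GC offset, alone and with the block, Hist2h2aa2 turned to -0.052 and -0.080, H2afb3 to -0.028 and -0.060, and H3f3a to 0.062 and 0.063. With library totals, H3f3a was 0.059, Hist1h4a 0.042 and Hist1h4i 0.022. With the length offset, alone and with the block, Hist1h4a was 0.067 and 0.067 and Hist1h4i 0.027 and 0.021. Leaving out each library in turn turned the sign of 9 genes, with ranges of -0.95 to 0.17 for Hist1h2al, -0.18 to 0.49 for Hist2h2aa2, -0.15 to 0.47 for H2afj, -0.29 to 0.53 for H2afb3, -0.010 to 0.26 for Hist1h2bp, -0.47 to 0.11 for Hist2h2be, -0.092 to 0.083 for H3f3a, -0.11 to 0.064 for Hist1h4a and -0.66 to 0.44 for Hist1h4i. The cause was not tested. Depth limits the clustered genes, of which 17 of 28 lay under 1 CPM.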

Other observations

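The 3 histone symbols ending in -ps that the rule leaves out had few reads. Hist3h2bb-ps had 43 and 57 counts in control against 69 and 49, H3f3a-ps2 had 35 and 45 against 70 and 43, and H3f3a-ps1 had 27 and 31 against 40 and 49. In the authors' deposited table, the log2 fold change of H2afx was 0.53 with an adjusted p of 0.114, and that of H2afy3 was -0.69 with an adjusted p of 0.0790.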
